A study of Mus musculus with 6 samples.

Results

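Tmem176a and Tmem176b are neighbouring mouse genes on chromosome 6 that are read in opposite directions from nearly the same point. They were found by their exact symbols in the deposited table of unique molecular identifier (UMI) counts, in which they are 2 of 10520 genes, and both were among the 8969 genes with enough counts to test. The pair was chosen by its measured UMI levels, since both genes had already shown a higher level after lamin A/C knockdown in these libraries, so their difference between the groups is described here without a test.

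The cells were E0771, a breast adenocarcinoma line of the C57BL/6 mouse strain. Control cells (shControl) carried the empty pLKO.5-puro lentiviral vector and knockdown cells (shLmna) a MISSION shRNA plasmid against Lmna, the gene of lamin A and lamin C. Both lines were transduced with lentivirus, selected with puromycin and expanded, and nothing in the sources used here says that either was a single clone. The control vector held no shRNA insert, and only 1 shRNA against Lmna was sequenced, so an effect of this particular hairpin and an effect of lamin A/C loss cannot be told apart. Each group had 3 libraries, made by MARS-seq, which reads the 3' end of polyadenylated RNA and counts each captured molecule once through its UMI. The titles of the knockdown libraries say shRNA4, while their genotype and description say shLmna. The sample labels number the replicates without saying whether they came from separate cultures, so the spread between them may be technical. The shControl libraries sat at plate positions 13 to 15 and the shLmna libraries at positions 16 to 18, so plate position and group cannot be told apart. The libraries held between 1846208 and 3242051 UMIs, and no gene of the table had a highest count under 6.

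Tmem176a and Tmem176b encode small proteins that cross the membrane several times and resemble the MS4A family, to which the B cell protein CD20 belongs. Both proteins sit in vesicles of the endosomal and lysosomal system, where they have been linked to cation flow, and Tmem176b is known in dendritic cells and macrophages for holding back the inflammasome and in dendritic cells for antigen presentation. Lamin A and lamin C form filaments under the inner nuclear membrane, give the nucleus its stiffness and tether parts of the chromatin.

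In GRCm38 (mm10), Tmem176b spans 48833818 to 48841496 of chromosome 6 on the reverse strand and Tmem176a spans 48840919 to 48847071 on the forward strand, so that the annotated 5' ends of the genes overlap. Of the RefSeq start sites, the nearest facing ones are 48841374 for Tmem176b and 48841483 for Tmem176a, which leaves 108 bases between them. These bases are shown because the genes share them, read outward to either side from the ends of the capitals. The sequence is the forward strand of chr6:48841345-48841512 from the RefSeq annotation of GRCm38.p6, with the 108 bases between both starts in capitals and 30 bases on each side in lower case.
Tmem176b-Tmem176a start region: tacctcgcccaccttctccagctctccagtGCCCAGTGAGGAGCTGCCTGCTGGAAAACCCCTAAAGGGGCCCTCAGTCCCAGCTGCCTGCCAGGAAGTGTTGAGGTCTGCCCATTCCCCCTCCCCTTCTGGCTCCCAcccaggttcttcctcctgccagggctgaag
The 300-base window from 250 bases before to 50 bases from the Tmem176a start (48841233 to 48841532) had a GC content of 59.7%, against a median of 52.7% over 27025 RefSeq promoter windows of that length. It held 2 CpG dinucleotides. That is 0.079 of the number its base composition would give, where the median window had 0.389 and 10.7% of windows had less. The start region was thus GC-rich but poor in CpG.

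A search of both strands of this window for short motifs, allowing no mismatch, found none of the 8 letter patterns looked for. TATAAA (the TATA box) is in 14.2% of all promoter windows, CCAAT in 37.9%, GGGCGG (the GC box) in 35.9% and CACGTG (an E-box) in 7.24%. TGACTCA (an AP-1 site) is in 5.17%, the interferon-stimulated response element in 3.49%, AGGTCA (a nuclear receptor half-site) in 16.04% and CCGGAAG (an ETS site) in 9.12%. These letters are absent from this window, which says nothing about factors bound there or elsewhere.

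For every RefSeq gene the authors counted the UMIs of its final 1000 bases plus 100 bases past its end, and these counted ends cover the last exons of each gene, at opposite ends of the pair. In short transcripts they reach back towards the start region, as far as 48841669 in a Tmem176a transcript of 1086 bases. In the GENCODE M21 annotation no exon of another gene lay in the counted ends of either of the 2 Tmem176a transcripts of the basic set or of 4 of the 5 Tmem176b transcripts of that set. The exception was a Tmem176b transcript of 986 bases, whose window reaches its own start at 48841137 and a Tmem176a exon on the other strand. The sources used here do not say whether the counting used the strand.

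Tmem176a was counted at 34, 42 and 41 UMIs in shControl replicates 1, 2 and 3, and at 183, 176 and 90 UMIs in shLmna replicates 1, 2 and 3. Scaled with TMM factors to CPM, the UMIs of a gene per 1000000 UMIs of its library, its levels were 13.3, 13.1 and 21.8 in shControl and 68.6, 64.6 and 47.9 in shLmna. Every shLmna library was above every shControl library, with shControl replicate 3 the highest of its group and shLmna replicate 3 the lowest of its own. The mean level was 16.1 ± 4.92 CPM in shControl and 60.4 ± 11.0 CPM in shLmna (SD, n = 3 each), a ratio of 3.75. The nearest libraries of the groups, shLmna replicate 3 and shControl replicate 3, still differed 2.20-fold. The Log2FoldChange of Tmem176a, shLmna over shControl, was 1.95 (standard error 0.23, from edgeR's fit across all tested genes).

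Tmem176b was the more counted gene of the pair, with 144, 149 and 99 UMIs in the shControl libraries and 542, 400 and 291 in the shLmna libraries. Its scaled levels were 56.5, 46.6 and 52.5 CPM in shControl and 203, 147 and 155 CPM in shLmna. The groups did not overlap, and shLmna replicate 1 stood above the other knockdown libraries. The mean level was 51.9 ± 4.98 CPM in shControl and 168 ± 30.5 CPM in shLmna (SD, n = 3 each), a ratio of 3.24, and the nearest libraries of the groups differed 2.60-fold. The Log2FoldChange of Tmem176b was 1.70 (standard error 0.17). The libraries were bulk RNA, in which more cells with the transcript and more transcript per cell cannot be told apart.

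**Figure D1:**
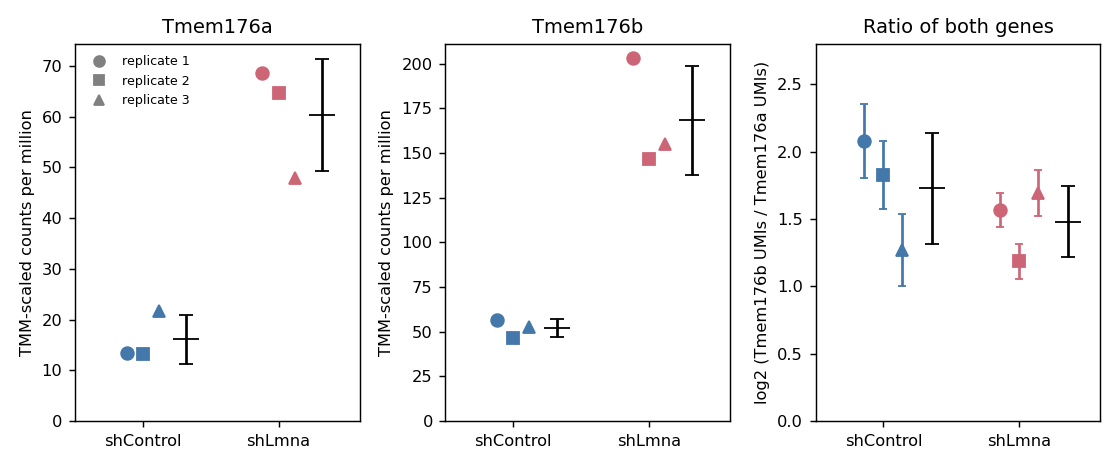
The left and middle panels plot Tmem176a and Tmem176b in TMM-scaled CPM in each library, and the right panel plots log2 of the ratio of Tmem176b to Tmem176a UMIs. Coloured points are libraries, with replicate number as shape and, on the right, bars of 1 SD from counting error alone, and black bars are the mean ± SD of 3 libraries. The groups are apart in both genes and overlap in the ratio.

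The study called a gene differentially expressed when its mean normalized count was over 5, its Log2FoldChange over 1 in size and its adjusted p under 0.05. By these limits both genes were called higher in shLmna, as were 3.97% of all tested genes, while 1.74% were called lower and 5.71% in either direction. Groups that did not overlap, with shLmna higher, were found for both genes and for 16.8% of all tested genes (32.5% with the groups apart in either direction). Since this contrast chose the pair, neither count is evidence about it. By Log2FoldChange, Tmem176a ranked 130 and Tmem176b 167 of the 8969 tested genes, from the highest down. A UMI count of 3' ends does not grow with transcript length, and on this scale the mean level of Tmem176a over all libraries was above that of 51.7% of the tested genes and the mean level of Tmem176b above 78.0%. Of the 4333 genes at the level of Tmem176a or above, 10 had a larger Log2FoldChange. These ran from 1.96 in Myl9, a myosin light chain, to 4.19 in Cd164. Of the 1976 genes at the level of Tmem176b or above, Myl9, at 1.96, was the 1 gene with a larger Log2FoldChange. The biological coefficient of variation, the spread between replicates beyond counting error, was 0.161 for Tmem176a and 0.139 for Tmem176b. The trend over genes at the same levels was 0.152 and 0.140.

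Lmna, on the reverse strand of chromosome 3 from 88480147 to 88509956, checks the labels and sets the scale. It had 2066, 2794 and 1764 UMIs in shControl and 1035, 1023 and 713 in shLmna, or 873 ± 62.8 and 381 ± 6.34 CPM (SD, n = 3 each). Every knockdown library was below every control library. Its Log2FoldChange was -1.20 (standard error 0.13, adjusted p = 3.5e-05 by the Benjamini-Hochberg method on edgeR's quasi-likelihood test). In this fit of the counts both Tmem176 genes thus had a Log2FoldChange larger in size than that of the targeted gene, and in the opposite direction.

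A further deposited table holds log2 values after the authors' normalization and ComBat correction. On that scale Tmem176a read 6.61, 6.65 and 6.88 in shControl and 7.69, 7.62 and 7.42 in shLmna, a difference of 0.86. Tmem176b read 7.68, 7.71 and 7.76 in shControl and 8.84, 8.65 and 8.68 in shLmna, a difference of 1.01. The groups were apart in both genes here too, but the differences were smaller than those from the counts and Tmem176b, not Tmem176a, had the larger one. Lmna differed by -0.87 on this scale, in size slightly more than Tmem176a and less than Tmem176b. The values of this table run from 5.12 to 14.7 with no gene near 0, and a difference on it was not read as a fold change of counts. Why the differences were smaller on it was not tested.

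The ratio of the genes within a library does not depend on library scaling and shows whether they kept step. Tmem176b UMIs were 4.24, 3.55 and 2.41 times the Tmem176a UMIs in shControl replicates 1, 2 and 3, and 2.96, 2.27 and 3.23 times in the shLmna replicates. The groups overlapped, and the lowest ratio of all 6 libraries was in shLmna replicate 2. On the log2 scale the ratio was 1.73 ± 0.41 in shControl and 1.48 ± 0.26 in shLmna (SD, n = 3 each), where counting error alone would give an SD of 0.27 and 0.14. The difference of the log2 ratios was -0.25 with a standard error of 0.28, smaller than the spread between replicates. With each library left out in turn it ran from -0.48 to -0.07. With n = 3 in each group and this spread between replicates, a log2 ratio difference of -0.25 could not be told from 0. The combined level of both genes was 67.9 ± 7.46 CPM in shControl and 229 ± 37.6 CPM in shLmna (SD, n = 3 each), a ratio of 3.36.

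**Figure D2:**
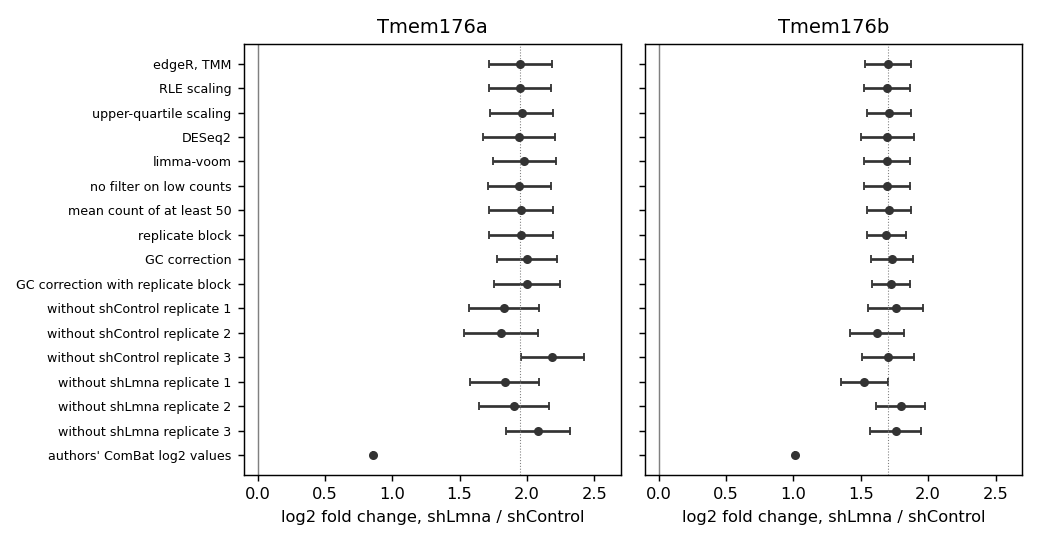
Each row gives the log2 fold change of Tmem176a (left) and Tmem176b (right), shLmna over shControl, in another fit, with bars of 1 standard error, and the bottom row gives the difference on the authors' ComBat scale, which has no error here. Points lie between 1.81 and 2.19 for Tmem176a and between 1.53 and 1.80 for Tmem176b in all fits of the counts, and at 0.86 and 1.01 on the ComBat scale.

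Whether the surrounding chromosome moved with the pair was asked of the genes within 500 kb. GENCODE places 58 other genes there, of which 12 were in the deposited table and 10 had enough counts to test. None of the 10 was called by the study's criteria (edgeR's quasi-likelihood test, with 3 at an unadjusted p below 0.05), nor was any by DESeq2 or limma-voom. Over all tested genes 5.71% were called and 28.4% had an unadjusted p below 0.05, so among 10 genes these counts are near the share of any gene. Their Log2FoldChanges ran from -0.73 to 0.79 with a median of 0.38, and 7 were above 0 and 3 below, where the median of all tested genes was 0.00. Widening the window to 1000 kb gave 15 tested genes, of which again 0 were called, with 4 at an unadjusted p below 0.05.

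The nearest tested neighbour was Gimap5, 79.6 kb from the pair on the side of Tmem176b, one of a cluster of GTPase genes known from lymphocyte survival. It was counted at 22, 43 and 11 UMIs in shControl and 61, 35 and 27 UMIs in shLmna. The groups overlapped in scaled level, and the Log2FoldChange was 0.79 (standard error 0.32, adjusted p = 0.116). Gimap9 and Gimap6 of the same cluster had Log2FoldChanges of 0.52 and -0.05, and Gimap1, with 5, 7 and 2 UMIs in shControl and 8, 14 and 5 in shLmna, was too low to test. The nearest tested gene on the side of Tmem176a was Gpnmb, 189 kb away, which encodes a glycoprotein of melanosomes and lysosomes. It had 8, 8 and 9 UMIs in shControl and 13, 16 and 11 in shLmna, which did not overlap in scaled level, and a Log2FoldChange of 0.72 (standard error 0.38, adjusted p = 0.239). Between Gimap5 and Gpnmb the annotation holds 18 genes beside the pair, 5 of them protein-coding, and none of these was in the deposited table. What happened to them was not measured here.

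Of the tested neighbours, only Zfp862-ps, a zinc finger pseudogene, passed an adjusted p of 0.05, and it was lower in shLmna, with a Log2FoldChange of -0.73 (standard error 0.20, adjusted p = 0.0241). It missed that threshold with 5 of the 6 libraries left out in turn, shControl replicate 3 being the exception (adjusted p up to 0.128, without shControl replicate 2). Malsu1, a factor of mitochondrial ribosome assembly, stood at 0.42 (standard error 0.16, adjusted p = 0.108) and Tra2a, a splicing regulator, at 0.51 (standard error 0.24, adjusted p = 0.181). Without shControl replicate 3 both passed the threshold on the adjusted p, at 0.52 and 0.73. The remaining tested neighbours were Ccdc126 at 0.34, Lrrc61 at 0.19 and Repin1, a zinc finger protein gene, at -0.14. Ccdc126 was at -0.29 after a correction for GC content, and its direction is not settled by these data. The counted end of Malsu1 overlaps Igf2bp3 and that of Gimap5 overlaps Gm44226, each on the other strand, so their reads may include those of the partner.

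**Figure D3:**
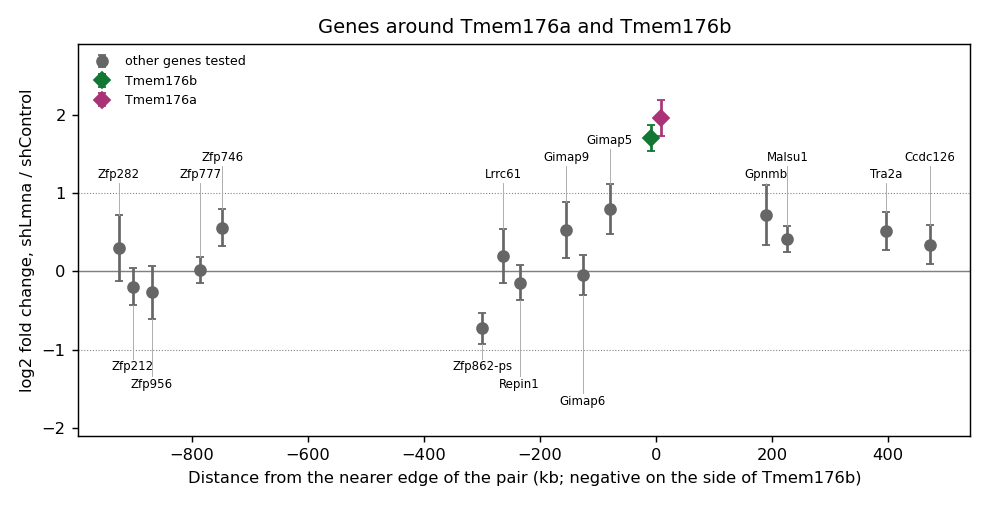
Log2 fold change, shLmna over shControl, of Tmem176a, Tmem176b and the 15 other tested genes within 1000 kb, against distance in kb from the nearer edge of the pair, with bars of 1 standard error and dotted lines at the study's fold limit. Both genes of the pair lie above 1.5, and every neighbour lies between the dotted lines, from -0.73 to 0.79.

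The pair was then set beside other divergent pairs, protein-coding genes on opposite strands whose RefSeq starts lie within 1000 bases of each other. There were 444 other such pairs with both genes tested, at a median distance of 144 bases between starts, against 109 for Tmem176b and Tmem176a. In 420 of them neither gene was called, in 24 one was, and in 0 both were. In 25 pairs both genes had an unadjusted p below 0.05 in edgeR's quasi-likelihood test, 16 of these in the same direction. Of all tested genes 28.4% had such a p, and the 25 pairs were not read as a sign of joint change. DESeq2 and limma-voom also called both genes in 0 other pairs. Leaving out shControl replicate 3 gave 1 other pair with both genes called, Dzip3 at 2.97 and C330027C09Rik at 1.14. Among the 16 pairs with 1 gene called higher, the partner's Log2FoldChange ran from -0.37 to 0.71 with a median of -0.02, and 8 of the 16 partners were above 0. With 5.71% of all tested genes called, 0 called partners among 24 is near the share of any gene.

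The mean Log2FoldChange of Tmem176a and Tmem176b, 1.83, was exceeded by 2 of the 444 pairs, in each of which 1 gene carried the mean. Itfg1 was at 5.13 beside Phkb at 0.32, and Rab6a at 4.32 beside Mrpl48 at 0.09. The Tmem176 genes differed from each other by 0.25, and 175 of the 444 pairs differed by less, the median being 0.33. None of those 175 pairs had a called gene, though some were away from 0 in both, such as Col4a1 at 0.66 and Col4a2 at 0.62. In the 24 pairs with 1 called gene the difference ran from 0.48 (Brd2 and H2-DMa) to 4.81 (Itfg1 and Phkb). The difference comes from the same values that chose the pair. In 237 of the 444 pairs both genes had the same sign. These counts are descriptions, since the pair was chosen for both genes being higher.

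**Figure D4:**
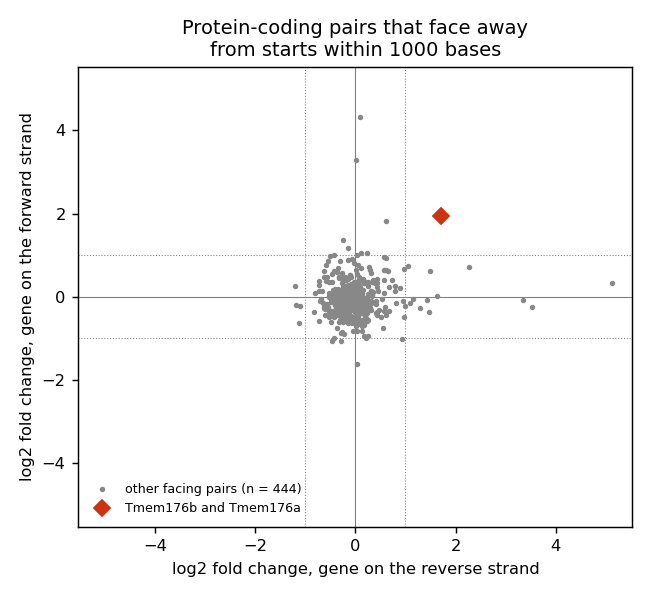
Each point is a divergent protein-coding pair with starts within 1000 bases, with the log2 fold change of the gene on the reverse strand on the x axis and of the gene on the forward strand on the y axis, and dotted lines at 1 and -1. Most of the 444 other pairs sit near the centre or along an axis, and the diamond of Tmem176b and Tmem176a, at 1.70 and 1.95, lies beyond the limit on both axes.

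Genes with a profile most like that of each member were sought among 5842 genes with a mean of at least 50 UMIs per library, by the root mean square difference of log2 CPM over the 6 libraries after each gene was centred on its own mean. For Tmem176b the nearest was Gamt, the enzyme that completes creatine synthesis, at 0.108, where the median gene was at 0.885. Gamt had 32.2, 28.8 and 35.02 CPM in shControl and 147, 91.0 and 105 CPM in shLmna, with shLmna replicate 1 highest as in Tmem176b, and a Log2FoldChange of 1.85. Next came Pcolce (0.158), an enhancer of procollagen processing, Gdi2 (0.205), which recycles Rab GTPases, Ephx1 (0.239), the microsomal epoxide hydrolase, and Atp13a3 (0.246), a transporter of polyamines.

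For Tmem176a the nearest were Zbtb7b at 0.246, a zinc finger transcription factor, Gamt at 0.272, Atp13a3 at 0.291 and Pcolce at 0.297. The fifth was Tmem176b at 0.299, where the median gene was at 1.02, and Tmem176a in turn ranked 17 from Tmem176b. Tmem176a had lower counts and its profile carries more counting error. The 6 other genes named had Log2FoldChanges from 1.49 to 1.85, and in none did the groups overlap. Both follow from a search by profile, and 16.8% of all tested genes had groups apart with shLmna higher. After the GC correction Atp13a3 was at 0.81 and Gdi2 at 1.24, while Tmem176b was at 1.73 and Tmem176a moved by less than its standard error. The counted ends of Zbtb7b and Gdi2 overlap genes on the other strand. Over 6 libraries in 2 groups, likeness of this kind mostly reflects a shared group difference.

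**Figure D5:**
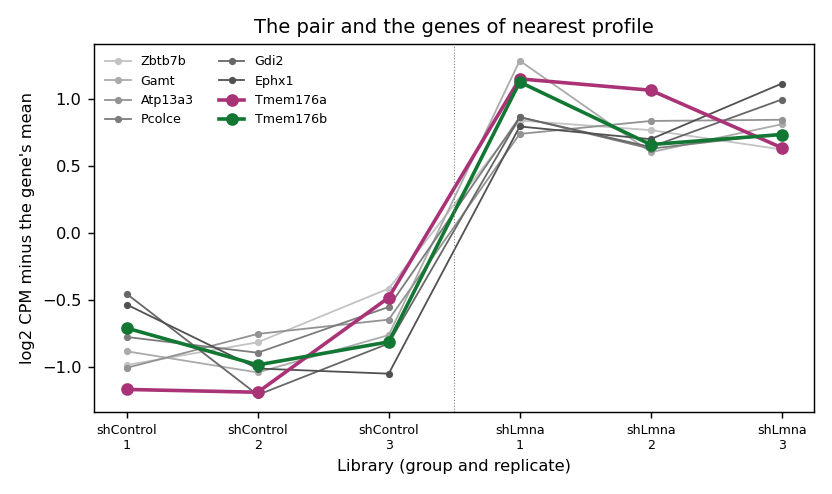
Log2 CPM of each gene minus its mean over the 6 libraries (y axis) in each library (x axis) for Tmem176a, Tmem176b and, in grey, the genes of nearest profile. All lines are below 0 in the shControl libraries and above 0 in the shLmna libraries, and Tmem176b and Gamt both peak in shLmna replicate 1.

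Genes of the biology in which the Tmem176 proteins are known were counted by list, without the pair itself. Over all tested genes the median Log2FoldChange was 0.00, 5.71% of them were called in either direction and 13.7% had an adjusted p under 0.05. An unadjusted p below 0.05 in edgeR's test was found for 28.4%. None of the 19 MS4A family genes listed was in the deposited table, so the pair had no counted relative among the genes listed.

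Of 19 inflammasome genes, 9 were in the table and 8 were tested, with a median of -0.13. In edgeR's test 2 had an unadjusted p below 0.05, and 1 was called. This was Txnip, a thioredoxin-binding protein linked to inflammasome activation, with 38, 47 and 22 UMIs in shControl and 12, 15 and 13 in shLmna, which did not overlap in scaled level. Txnip fell, with a Log2FoldChange of -1.32 (standard error 0.29, adjusted p = 0.00839), but missed the threshold without shControl replicate 2 (adjusted p = 0.0566). The tested genes of the list with the highest levels were Ninj1, which ruptures the membrane of dying cells, at 0.32, the DNA sensor Aim2 at -0.22, the pore former Gsdmd at -0.19 and Casp8, an initiator caspase, at 0.47, none of which passed an adjusted p of 0.05. Nlrp3, Casp1, Pycard and Il1b, the core of the inflammasome and its product, were not in the table.

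Of 18 genes of the MHC class II pathway, 8 were in the table and 7 were tested, with a median of 0.04 and 0 called by edgeR, DESeq2 or limma-voom (3 had an unadjusted p below 0.05 in edgeR's test). H2-DMa, which helps load peptide, was at -0.64 (standard error 0.20, adjusted p = 0.0490) and missed the threshold with DESeq2 (adjusted p = 0.0684), with no filter on low counts (0.0589), with a minimum mean count of 50 (0.0569) and without either of shControl replicates 1 and 2 and shLmna replicates 2 and 3 (adjusted p from 0.139 to 0.192). Ifi30, a lysosomal thiol reductase and the highest of the list, had means of 433 and 391 CPM in shControl and shLmna and a Log2FoldChange of -0.15. March8, a ubiquitin ligase, was at 0.22 and H2-DMb1, the partner of H2-DMa, at 0.64, both with an adjusted p above 0.05. Cd74, the invariant chain, had 1 to 13 UMIs per library and was not tested, and H2-Aa, H2-Ab1 and Ciita were not in the table.

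Of 25 endolysosomal ion channels and transporters, 17 were in the table and 16 were tested, with a median of 0.07. In edgeR's test 6 had an unadjusted p below 0.05, and 1 was called. Clcn3, a chloride-proton exchanger of endosomes, rose from 6, 5 and 12 UMIs in shControl to 64, 94 and 52 in shLmna, with a Log2FoldChange of 3.20 (standard error 0.37, adjusted p = 4.7e-05) that ran from 2.78 to 3.86 with each library left out. Slc11a2, an iron transporter of endosomes, fell by 0.83 on the log2 scale (standard error 0.15, adjusted p = 0.00249), from 98.5 to 55.5 CPM, short of the study's fold limit. The other genes of high level were the potassium channel Kcnn4 at -0.39, the calcium channel Tpcn1 at -0.16 and the chloride transporter Clcn7 at -0.06, none past an adjusted p of 0.05.

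Markers of cell types that usually carry Tmem176 transcripts were looked for in the libraries. Of 18 myeloid and dendritic cell markers, 7 were in the table and 4 were tested, and their summed level ran from 309 to 347 CPM in shControl and from 357 to 418 CPM in shLmna. Most of this was Laptm5, a lysosomal protein of blood cells, with means of 295 and 333 CPM and a Log2FoldChange of 0.17 (standard error 0.14, adjusted p = 0.448). The 1 called marker was Lyz2, lysozyme, which rose from 10, 23 and 13 UMIs to 42, 35 and 29, with a Log2FoldChange of 1.28 (standard error 0.30, adjusted p = 0.0110), and which missed the threshold without shControl replicate 1 (adjusted p = 0.0520). Cd68, at -0.62, and the transcription factor Spi1, at -0.01, did not pass an adjusted p of 0.05. Ptprc, Tyrobp, Adgre1, Itgam and Itgax, which define leukocytes and their myeloid subsets, were not in the table, Csf1r had at most 7 UMIs in any library and Fcer1g at most 7. The part of these markers in the difference of the Tmem176 genes was not tested.

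Of 8 lymphocyte markers, none had enough counts to be tested. Of 11 fibroblast and endothelial markers, 5 were in the table and 2 were tested, with 0 called by edgeR, DESeq2 or limma-voom (1 at an unadjusted p below 0.05). Their summed level ran from 19.4 to 21.8 CPM in shControl and from 29.0 to 33.0 CPM in shLmna, most of it Pdgfrb, a growth factor receptor of pericytes and fibroblasts. Pdgfrb was at 0.74 (standard error 0.23, adjusted p = 0.0457) and missed the threshold with DESeq2 (adjusted p = 0.133) and with each of the 6 libraries left out (adjusted p from 0.0802 to 0.139), and Pdgfra was at 0.04.

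Of 13 markers of mammary carcinoma lines, 6 were in the table and tested, and edgeR called 0 of them (2 had an unadjusted p below 0.05), as did DESeq2, while limma-voom called 1, Krt14. Krt14, a keratin of basal cells, had 18, 31 and 15 UMIs in shControl and 8, 5 and 13 in shLmna, and a Log2FoldChange of -1.18 (standard error 0.42, adjusted p = 0.0772 with edgeR). Krt18, the partner of Krt8, was at -0.53 (adjusted p = 0.453). Vim, an intermediate filament protein of mesenchymal cells, had means of 5229 and 5933 CPM in shControl and shLmna, and Krt8, a keratin of simple epithelia, 276 and 291 CPM. Their Log2FoldChanges were 0.18 and 0.07, neither past an adjusted p of 0.05. Erbb2, a growth factor receptor, was at 0.37 (adjusted p = 0.319) and Epcam, an epithelial adhesion protein, at -0.90 (adjusted p = 0.0909) from 13.7 to 7.08 CPM. The other 7 markers, Cdh1, Krt19, Krt5, Esr1, Pgr, Erbb3 and Gata3, were not in the table. The name of the line comes from the sample titles and not from these markers.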

How the data were processed

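RNA of E0771 cells (3 shControl and 3 shLmna libraries) had been sequenced by MARS-seq. The authors trimmed reads with Cutadapt, mapped them to mm10 with STAR 2.4.2a and counted UMIs with HTSeq-count, which gave the deposited counts. The deposited log2 values were normalized and ComBat-corrected by the authors, with the batch not given in the sources used here. Another deposited table, of DESeq2 mean normalized counts, fold changes and p-values, was not used. Groups and replicate numbers came from the sample labels.

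The counts of the 8969 genes that passed filterByExpr (minimum count 10) were scaled by TMM and compared by the quasi-likelihood test of edgeR 4.0.16 in R 4.3.3, with p-values adjusted over all of them by the Benjamini-Hochberg method. A standard error is the Log2FoldChange over the square root of its F statistic. Alternatives were RLE and upper-quartile scaling, DESeq2 1.42.0, limma-voom (limma 3.58.1), no filter, a mean count of at least 50, a replicate block, a GC correction (loess, span 0.3, degree 2, over the last 1000 bases) and each library left out. The scripts were tested on simulated data. No replicates were alike within sampling noise (chi-square over its degrees of freedom at least 5.52). The smallest p of an exact permutation test with 3 libraries a group is 0.1, so none was run on single genes.

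Positions came from GENCODE M21, matched to 10448 genes, 321 through an older symbol, and start sites and promoter windows from RefSeq (GRCm38.p6). Members and lists were chosen with earlier results of these data known. The genes named were the pair, Lmna, tested genes within 500 kb, the 5 nearest profiles of each member, divergent pairs with both genes called and, of each list, the genes past an adjusted p of 0.05 and the 4 of highest level. Others, among them Myl9, the pairs with a larger mean and the markers at low or no count, were named after their values were seen. Summaries and plots were made with matplotlib 3.10.9, numpy 2.4.6 and pandas 2.3.3 in Python 3.11.15. Values of some listed genes are not reported here.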

Additional observations from a re-analysis of the deposited data

How the results depend on the processing

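Both Tmem176 genes were called higher in 16 of 16 fits of the counts. Since this contrast chose the pair, that tally is not evidence about it and shows only how the values depend on the fit. Leaving out 1 library at a time, the Log2FoldChange ran from 1.81 to 2.19 for Tmem176a and from 1.53 to 1.80 for Tmem176b. The Log2FoldChange of Tmem176b less that of Tmem176a then ran from -0.48 to -0.07. On the authors' ComBat log2 values the differences were 0.86 and 1.01, which are smaller on that scale, and the cause was not tested. Over all genes, 512 were called, 356 higher and 156 lower. A minimum mean count of 50 tests fewer genes and left 158, 112 higher and 46 lower. With each library left out the counts ran from 346 to 654 in all, from 254 to 462 higher and from 92 to 192 lower, the lowest without shControl replicate 2 and the highest without shControl replicate 3. DESeq2 called 421. The number of other divergent pairs with both genes called ran from 0 to 1 with a library left out, and was 0 with starts within 300 or 2000 bases. Of the listed genes 3 were called (Txnip, Clcn3 and Lyz2), 5 with limma-voom, 0 with the minimum mean of 50, where Clcn3, Lyz2 and Txnip were too low to enter, and from 2 to 4 with a library left out.

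Both groups carry replicate numbers 1, 2 and 3, but libraries with the same number deviated from the means of their groups with correlations of 0.32, -0.11 and 0.017, so the numbers were not taken to pair the libraries. With the replicate number as a block the Log2FoldChange was 1.95 for Tmem176a and 1.69 for Tmem176b, and 518 genes were called. Pdgfrb then missed the threshold (adjusted p = 0.0551).

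Tmem176a had 117 UMIs over the shControl libraries, which limits the ratio of the pair, as does a spread between replicates larger than counting error. Neighbours too low to test cannot be described.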
